A study of Mus musculus with 21 samples.

Results

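The 9 genes described here encode enzymes of the tricarboxylic acid cycle: citrate synthase (Cs), the isocitrate dehydrogenase genes Idh2, Idh3a and Idh3b, oxoglutarate dehydrogenase (Ogdh), the succinyl-CoA synthetase subunits Suclg1 and Sucla2, fumarate hydratase (Fh1) and mitochondrial malate dehydrogenase (Mdh2). They were taken by symbol from a count table of 24054 rows, and each symbol had 1 row. The libraries came from left ventricle myocardium of C57BL/6J mice, flash-frozen, and fall into 4 groups. Mice with transverse aortic constriction (TAC, a narrowing of the aorta that overloads the left ventricle) and the PDE5A inhibitor sildenafil gave 5 libraries. Mice with TAC and the PDE9A inhibitor PF-04449613 gave 6, mice with TAC and no drug gave 5, and sham-operated mice with no drug gave 5. Treatment began 1 week after surgery and lasted 4 weeks. The sources used here give no dose or age and do not say whether undrugged mice received a vehicle. Each library is 1 animal with its own ear tag, and the samples are tissue, so a lower RNA level per cell and a lower share of the cells that carry it cannot be told apart.

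The cycle runs in the mitochondrial matrix. It takes up acetyl-CoA made from fatty acids, pyruvate and ketone bodies, releases carbon dioxide, and passes electrons to the respiratory chain as NADH and reduced flavin. Heart muscle makes most of its ATP by oxidative metabolism, of which the cycle is a part. Citrate synthase joins acetyl-CoA to oxaloacetate, the isocitrate and oxoglutarate dehydrogenases carry out the oxidative decarboxylations, succinyl-CoA synthetase forms GTP or ATP directly, and fumarate hydratase and malate dehydrogenase regenerate oxaloacetate.

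The libraries summed to 22.7 to 41.0 (in units of 1e6) expected counts. Levels are CPM, expected counts relative to library size with sizes scaled by the TMM method, and all 9 genes passed the filter on low counts. PDE9A inhibitor libraries 1 and 4 had the highest shares of the ribosomal RNA gene Rn45s, 0.326% and 0.416% of counts. The other 19 libraries had 0.192% to 0.278%. Without libraries 1 and 4 of that group, 8 cycle genes still fell between TAC and sham, where 30% of all genes were called. In that fit no cycle gene was called between an inhibitor and TAC. Of 14135 genes tested with edgeR's quasi-likelihood test, 25.2% had an adjusted p under 0.05 between TAC and sham. Such genes are referred to as called, and the words rose and fell are kept for them.

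With TAC, 8 of the 9 cycle genes fell relative to sham, where 13% of all genes tested were called lower. The log2 fold changes of the 9 ran from -0.58 to -0.36 with a median of -0.43, and the median over all genes was near 0 (-0.001). Suclg1, Idh3a and Cs had no overlap between the groups, against 8% of all genes that were lower without overlap. Idh2 lay below zero but was not called.

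**Figure D1:**
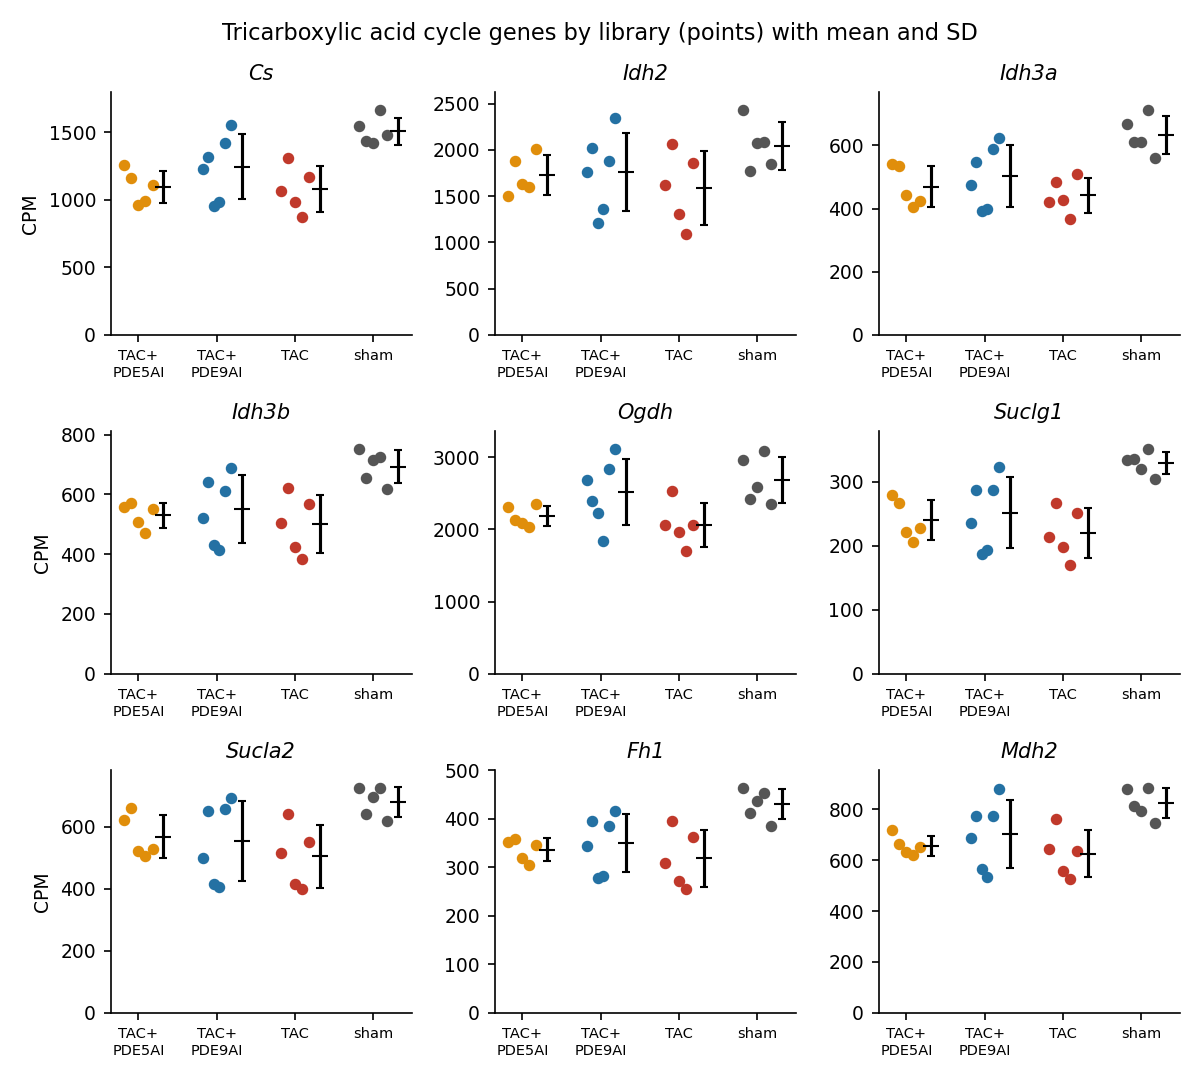
TMM-scaled CPM of the 9 cycle genes (vertical axes, each starting at 0) in every library, by group; points are libraries, and the bar beside them is the mean with its SD (n = 5, 6, 5 and 5). The TAC points for Cs, Idh3a and Suclg1 all lie under the lowest sham point, whereas the PDE9A inhibitor points spread from inside the TAC range up to the sham range.

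Cs catalyses the entry step of the cycle and is commonly assayed as a marker of mitochondrial content. It lies on chromosome 10 from 128337734 to 128362479, plus strand (ENSMUSG00000005683.8; coordinates are of GRCm38, the assembly that mm10 names, and span exons and introns). Cs stood at 1068, 1313, 982, 875 and 1167 CPM in TAC libraries 1 to 5, against 1546, 1435, 1421, 1666 and 1481 CPM in sham libraries 1 to 5. Every TAC library was below every sham library. The log2 fold change was -0.48 (SE 0.13, 95% interval -0.75 to -0.21, adjusted p = 0.0127).

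Idh3a encodes the catalytic alpha subunit of the NAD-dependent isocitrate dehydrogenase, and Idh3b encodes its beta subunit. Idh3a (chromosome 9, 54586334 to 54604661, plus strand) stood at 421, 484, 428, 367 and 508 CPM with TAC, against 669, 611, 611, 712 and 559 CPM in sham hearts. The groups did not overlap, and the log2 fold change was -0.52 (SE 0.13, adjusted p = 0.00933). Idh3b (chromosome 2, 130279309 to 130284547, minus strand) stood at 503, 622, 425, 385 and 567 CPM with TAC, against 752, 653, 714, 724 and 618 CPM in sham hearts. TAC library 2 reached just above sham library 5, and the other TAC libraries were below all sham libraries. Idh3b fell by 0.47 on the log2 scale (SE 0.14, adjusted p = 0.0199).

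Idh2 encodes the NADP-dependent mitochondrial isocitrate dehydrogenase, a source of NADPH in the matrix (chromosome 7, 80094846 to 80115392, minus strand). It stood at 1618, 2065, 1305, 1093 and 1857 CPM with TAC, against 2430, 1773, 2069, 2082 and 1846 CPM in sham hearts. TAC libraries 2 and 5 lay inside the sham range, and TAC libraries 3 and 4 were the lowest of the 10. The log2 fold change was -0.36 (SE 0.17, 95% interval -0.72 to 0.00, adjusted p = 0.126). Its SD within the TAC group was 24.9% of the mean, the widest of the 9 genes there. Without TAC library 2 the value was -0.46 and Idh2 was called.

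Ogdh encodes the E1 component of the oxoglutarate dehydrogenase complex, which takes oxoglutarate to succinyl-CoA (chromosome 11, 6291633 to 6356642, plus strand). It stood at 2057, 2537, 1969, 1694 and 2055 CPM with TAC, against 2953, 2421, 2590, 3079 and 2356 CPM in sham hearts. TAC library 2 was above sham libraries 2 and 5, and the other TAC libraries were below all sham libraries. Ogdh fell by 0.38 on the log2 scale (SE 0.13, adjusted p = 0.0338).

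Suclg1 encodes the alpha subunit shared by both forms of succinyl-CoA synthetase, and Sucla2 encodes the beta subunit of the ATP-forming one. Suclg1 (chromosome 6, 73248382 to 73276911, plus strand) stood at 214, 266, 197, 170 and 251.6 CPM with TAC, against 334, 335, 320, 351 and 305 CPM in sham hearts. No TAC library reached the sham range, and the log2 fold change of -0.58 (SE 0.14, adjusted p = 0.00865) was the lowest of the 9 genes. Sucla2 (chromosome 14, 73525319 to 73596142, plus strand) stood at 515, 642, 415, 399 and 551 CPM with TAC, against 725, 641, 695, 725 and 620 CPM in sham hearts. TAC library 2 was above sham libraries 2 and 5. Sucla2 fell by 0.43 on the log2 scale (SE 0.15, adjusted p = 0.0419).

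Fh1 encodes fumarate hydratase (chromosome 1, 175600374 to 175625635, minus strand), and Mdh2 the mitochondrial malate dehydrogenase (chromosome 5, 135778480 to 135790398, plus strand). Fh1 stood at 308, 395, 272, 256 and 362 CPM with TAC, against 463, 413, 437, 453 and 385 CPM in sham hearts. Mdh2 stood at 645, 763, 558, 526 and 635 CPM with TAC, against 879, 813, 792, 884 and 745 CPM in sham hearts. For both genes TAC library 2 alone lay above the lowest sham library, sham library 5. Fh1 fell by 0.43 on the log2 scale (SE 0.12, adjusted p = 0.0158), and Mdh2 fell by 0.40 (SE 0.12, adjusted p = 0.022).

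The annotation places genes of the opposite strand over part of some of the 9, among them Fh1 (Kmo) and Idh3b (Nop56). The libraries were made with a stranded kit, but the sources used here do not say whether the counting used strand, so reads from these neighbours may not be separable.

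The count of genes that fell depended on single libraries. It was 3 (Cs, Idh3a and Suclg1) without TAC library 3 or without TAC library 4, 5 without sham library 1 or sham library 4, and 9 without TAC library 2. The share of all genes called in either direction moved too, from 25.2% in the full fit. It was 14.2% without TAC library 3, 12.6% without TAC library 4 and 31.2% without TAC library 2. Without sham library 1 or sham library 4 it was 17.2% and 16.9%. Cs, Idh3a and Suclg1 were called in each of the 21 fits that left out 1 library. Ear tags fall into 3 number series (1xx, 5xx and 6xx), which the labels do not call a batch. Within the 1xx series (2 TAC and 3 sham libraries) all 9 genes were below zero, with a median difference in log2 CPM of -0.31. Within the 6xx series (2 TAC and 2 sham libraries) all 9 were again below zero, with a median of -0.52. With the series as a term in the fit, 6 of the 9 genes fell and the calls of Ogdh and Sucla2 ended. In that fit 19% of all genes were called.

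Promoter sequence was looked at because these genes moved together. RefSeq windows (GRCm38.p6, 250 bases before to 50 after the annotated start) were matched for 8 of the 9 genes; Idh3a was not matched. The stretches of Cs, the entry step, and Fh1, the gene closest to the mean pattern of the other 8, are shown from 120 bases before the start to 30 after it, at chr10:128337607-128337756 (plus strand) and chr1:175625606-175625755 (minus strand). Capitals mark matches, on either strand, to the CCAAT box (CCAAT), the GC box bound by SP1 (GGGCGG) and the ETS core bound by GABP (CCGGAA).
Cs: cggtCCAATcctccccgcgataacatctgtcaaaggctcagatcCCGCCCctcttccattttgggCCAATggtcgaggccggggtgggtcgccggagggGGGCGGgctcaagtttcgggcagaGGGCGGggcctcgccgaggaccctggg
Fh1: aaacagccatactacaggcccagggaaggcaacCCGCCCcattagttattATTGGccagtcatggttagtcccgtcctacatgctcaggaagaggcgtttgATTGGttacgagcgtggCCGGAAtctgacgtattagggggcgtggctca

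The GC box was present in 6 of 8 windows (Cs, Idh2, Ogdh, Sucla2, Fh1 and Mdh2), against 35.7% of all 32851 windows in the RefSeq table. The CCAAT box was present in 5 of 8 (Cs, Idh2, Idh3b, Ogdh and Fh1), against 37.4% of all windows. The ETS core was present in Idh3b and Fh1, against 14.9% of all windows. The core motif of NRF1 was present in Sucla2 alone, against 4.6%, and the element of the oestrogen-related receptors (TCAAGGTCA) was in none of the 8, against 0.423%. All motifs were searched on both strands. Each of the 8 genes was represented by the window of its most upstream start, whereas the shares over all windows count every RefSeq window. A match is a description of the letters in the window and not of binding.

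Per kilobase of annotated exon, Idh2 had the highest level of the 9 genes and Suclg1 the lowest. The length merges all annotated exons of a gene (2588 bases for Idh2 and 4617 for Suclg1). It can exceed the length of the transcript present, so the order depends on the annotation. In sham hearts Idh2 averaged 788 ± 99.3 CPM per kb, Ogdh 491 ± 59.0, Cs 261 ± 17.3 and Mdh2 231 ± 16.6 (SD, n = 5). Idh3b averaged 202 ± 16.04 CPM per kb, Sucla2 171 ± 12.2, Fh1 127 ± 9.32, Idh3a 125 ± 11.7 and Suclg1 71.3 ± 3.79. The ranges of Fh1 (114 to 137) and Idh3a (110 to 140) overlapped, as did those of Cs (246 to 288) and Mdh2 (209 to 248), Mdh2 and Idh3b (181 to 220), and Idh3b and Sucla2 (156 to 182). Idh2, Ogdh and Suclg1 did not overlap their neighbours in this order in sham hearts.

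Between the PDE5A inhibitor and TAC without drug none of the 9 was called, and none reached an unadjusted p under 0.05, where 0.0141% of all genes tested were called. All 9 log2 fold changes were above zero, from 0.02 (Cs) to 0.17 (Sucla2), with a median of 0.09, against -0.003 over all genes. That median was 0.02 without TAC library 4 and 0.17 without TAC library 2; it was 0.37 within the 5xx ear tag series (2 inhibitor libraries and 1 TAC library) and 0.12 within the 6xx series (3 and 2). The 2 comparisons share the TAC libraries, so low TAC levels enter both. Cs stood at 1255, 1159, 961, 994 and 1108 CPM with the PDE5A inhibitor, inside the TAC range of 875 to 1313 CPM. Its log2 fold change was 0.02, with a 95% interval of -0.25 to 0.29. Suclg1 stood at 279, 266, 222, 206 and 228 CPM with the PDE5A inhibitor, against 170 to 266 CPM with TAC (log2 fold change 0.13, interval -0.17 to 0.42, adjusted p = 0.962). Sucla2 stood at 623, 662, 521, 506 and 528 CPM, against 399 to 642 CPM with TAC (log2 fold change 0.17, interval -0.15 to 0.49). The groups overlapped for every one of the 9 genes; 0.99% of all genes had no overlap here.

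Set against sham, the PDE5A inhibitor group had lower levels in all 9 genes, and 3 were called: Cs fell by 0.46 on the log2 scale (SE 0.13, adjusted p = 0.0249), Suclg1 by 0.46 (SE 0.14, 0.0384) and Idh3a by 0.43 (SE 0.13, 0.0332). Of all genes tested, 14.6% were called in this comparison and 7.8% were called lower. Without overlap between the groups stood 7 of the 9, against 8.75% of all genes lower without overlap. Idh2 and Sucla2 were the ones that overlapped, Idh2 through inhibitor libraries 2 (1881 CPM) and 5 (2014 CPM), and Sucla2 through libraries 1 and 2. The median log2 fold change was -0.36. These calls depended on the sham and inhibitor libraries: no gene was called without sham library 1, without sham library 4 or without PDE5A inhibitor library 3, 4 or 5, and 1 (Cs) without sham library 2 or 3. The count was 5 without TAC library 4 and 6 without PDE9A inhibitor library 4, where 15.9% and 17.9% of all genes were called. Without sham library 1 or 4 the share of all genes called was 6.12% and 7.18%. Without PDE5A inhibitor library 3, 4 or 5 it was 6.69%, 4.08% and 7.45%. Without sham library 2 or 3 it was 8.48% and 7.93%. With ear tag series as a term none of the 9 was called, where 1.95% of all genes were. The 5xx series holds PDE5A inhibitor libraries 1 and 2 but no sham library. Within the 6xx series (3 inhibitor and 2 sham libraries) all 9 genes were below zero, with a median difference of -0.37.

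Libraries of the PDE9A inhibitor group covered a wider span. The 9 genes together averaged 8431 ± 1637 summed CPM with the PDE9A inhibitor (SD, n = 6), 7800 ± 532 with the PDE5A inhibitor, 7341 ± 1279 with TAC and 9817 ± 863 in sham hearts (n = 5 each). PDE9A inhibitor library 6 summed to 108% of the sham mean and library 5 to 96.1%, whereas libraries 3 and 4 summed to 67.8% and 65.4%. TAC libraries ranged from 58.7% (library 4) to 92.6% (library 2) of the sham mean, and PDE5A inhibitor libraries from 72.6% to 83.8%.

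None of the 9 was called between the PDE9A inhibitor and TAC, where 0.00707% of all genes tested were called. All 9 log2 fold changes were above zero, from 0.13 to 0.29, with a median of 0.17, and here too the TAC libraries are shared with the comparison to sham. Ogdh had the highest of them. It stood at 1844 to 3112 CPM with the PDE9A inhibitor (median 2533, n = 6), against 1694 to 2537 CPM with TAC (median 2055, n = 5). PDE9A inhibitor libraries 1, 5 and 6 were above every TAC library, and the other libraries overlapped. Its log2 fold change was 0.29 (SE 0.12, interval 0.03 to 0.54, unadjusted p = 0.0277, adjusted p = 0.299), and it was the only gene of the 9 with an unadjusted p under 0.05. Cs stood at 953 to 1558 CPM with the PDE9A inhibitor (median 1273), against 875 to 1313 CPM with TAC (median 1068; log2 fold change 0.20, interval -0.05 to 0.46). Suclg1 stood at 187 to 322 CPM with the PDE9A inhibitor (median 261), against 170 to 266 CPM with TAC (median 214; log2 fold change 0.20, interval -0.09 to 0.48). The difference varied with ear tag series: the median over the 9 genes was -0.02 in the 1xx series (1 inhibitor and 2 TAC libraries), 0.24 in the 5xx series (4 and 1) and 0.61 in the 6xx series (1 and 2).

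Between the PDE9A inhibitor group and sham all 9 genes lay below zero (median -0.30), and none was called, where 3.82% of all genes tested were. An unadjusted p under 0.05 was reached by 5 of them: Suclg1 (log2 fold change -0.39, adjusted p = 0.0866), Idh3a (-0.33, 0.105), Fh1 (-0.30, 0.113), Idh3b (-0.33, 0.12) and Cs (-0.28, 0.15). DESeq2 called none of the 9 either, where it called 11% of all genes. All 9 overlapped between the groups, where 3.47% of all genes had no overlap, and inhibitor library 6 lay inside or above the sham range for each. Ogdh was nearest to sham, with a log2 fold change of -0.09 (interval -0.34 to 0.16). Without inhibitor library 6, 3 genes (Idh3a, Idh3b and Suclg1) were called, where 12.8% of all genes tested were. The median difference was -0.35 in the 1xx ear tag series (1 inhibitor and 3 sham libraries), with 8 of the 9 genes below zero. In the 6xx series (1 and 2 libraries) it was 0.04, with 4 of the 9 below zero. The 5xx series holds 4 inhibitor libraries but no sham library.

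**Figure D2:**
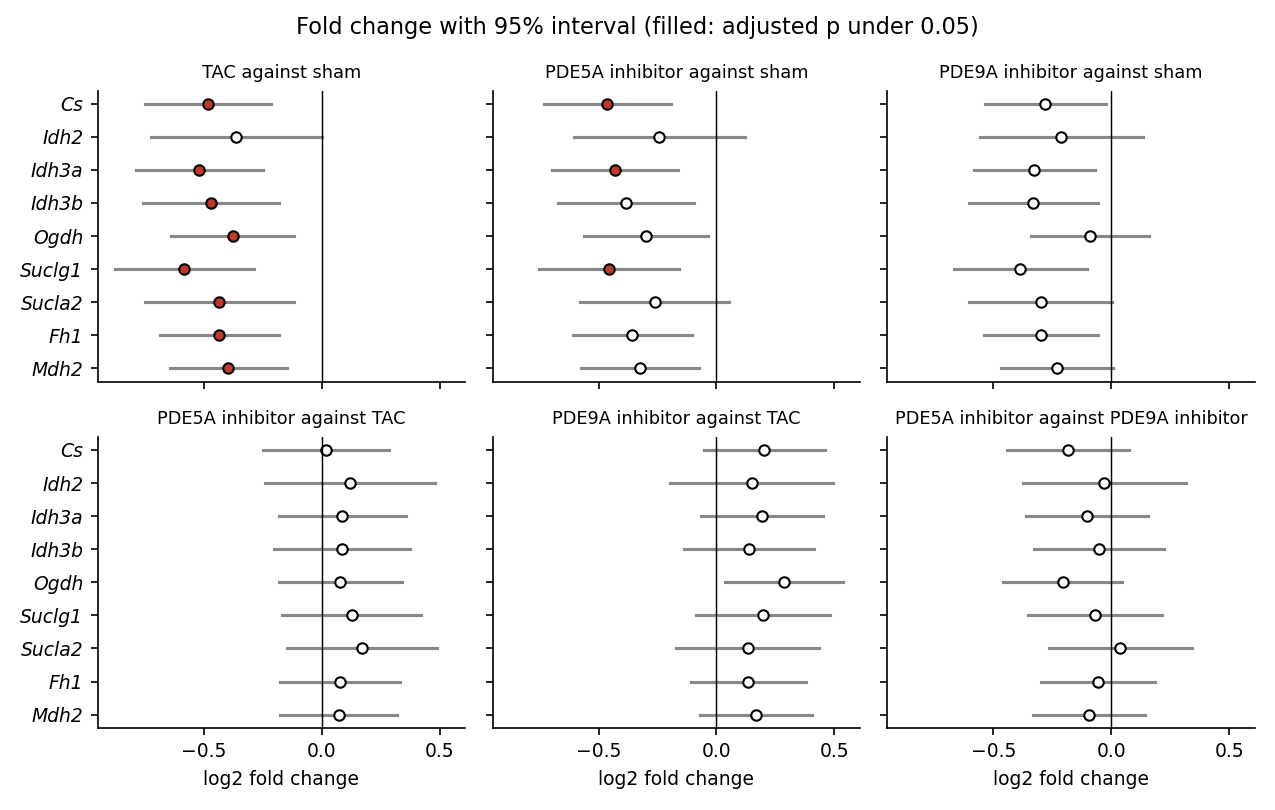
Log2 fold change of each cycle gene (points) with its 95% interval (lines) in the 6 comparisons; filled points have an adjusted p under 0.05. The 8 filled points between TAC and sham and the 3 between the PDE5A inhibitor and sham all lie below zero, and no point is filled between an inhibitor and TAC or between the inhibitors.

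The 2 inhibitors were set against each other directly, sildenafil over PF-04449613, after the same surgery and the same length of treatment; the sources used here do not say whether the doses were matched. None of the 9 genes was called or reached an unadjusted p under 0.05, where 0.00707% of all genes were called. The log2 fold changes ran from -0.21 (Ogdh) to 0.04 (Sucla2), with a median of -0.07. Ogdh stood at 2302, 2132, 2086, 2030 and 2345 CPM with the PDE5A inhibitor, against 1844 to 3112 CPM with the PDE9A inhibitor (interval of the difference -0.46 to 0.04, adjusted p = 0.576). Cs differed by -0.18 (interval -0.44 to 0.07). Sucla2 differed by 0.04, with an interval of -0.26 to 0.34. Mdh2 differed by -0.10, with an interval of -0.33 to 0.14. Intervals of this width do not show that the inhibitors act alike. The median difference was 0.11 within the 5xx ear tag series (2 and 4 libraries) and -0.48 within the 6xx series (3 and 1 libraries).

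Most other subunits of the cycle fell too. Of 9 other cycle subunits 8 fell with TAC, with a median log2 fold change of -0.42, where 13% of all genes tested were called lower. Among the partners, Idh3g, the gamma subunit of the NAD-dependent isocitrate dehydrogenase, averaged 309 ± 50.2 CPM with TAC and 407 ± 23.7 CPM in sham hearts (log2 fold change -0.40, adjusted p = 0.0123). Dlst, the E2 component of the oxoglutarate dehydrogenase complex, changed by -0.39 (adjusted p = 0.0317), and its E3 component Dld by -0.48 (0.0163). Suclg2, the beta subunit of the GTP-forming succinyl-CoA synthetase, averaged 184 ± 46.7 CPM with TAC and 256 ± 19.7 CPM in sham hearts (-0.48, 0.0234). In the fit to all libraries the 4 genes of succinate dehydrogenase, which is also complex II of the respiratory chain, fell. Its flavoprotein Sdha had the lowest value, with 1110 ± 260 CPM with TAC and 1685 ± 109 CPM in sham hearts (log2 fold change -0.60, SE 0.15, adjusted p = 0.00886). Sdhb fell by 0.42, Sdhc by 0.46 and Sdhd by 0.31 on the log2 scale. Among these 8 the calls of Sdhd and Dlst ended under the most alternatives: both ended with ear tag series as a term, that of Sdhd also with total-count scaling, and leaving out 1 library kept Sdhd in 13 of 21 fits and Dlst in 16. Without TAC library 3 or TAC library 4 the calls of Dld, Suclg2 and Sdhb ended too. Between an inhibitor and TAC none of these subunits was called.

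**Figure D3:**
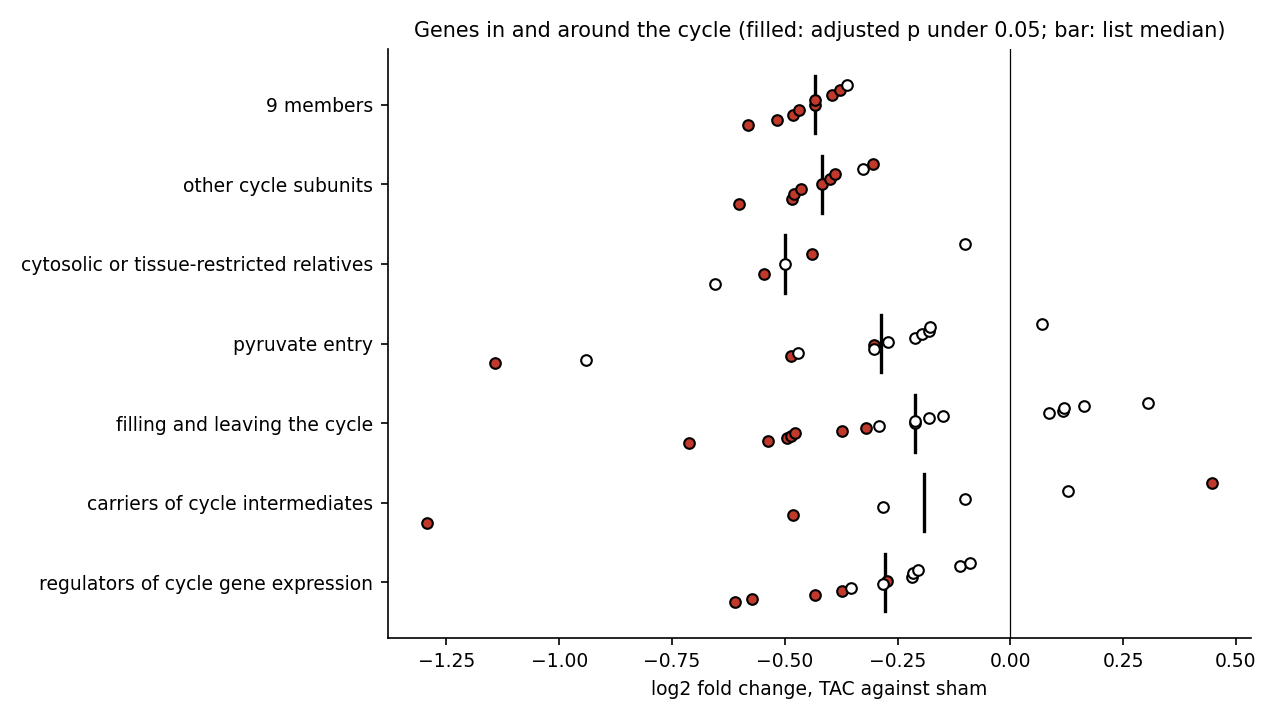
Log2 fold change between TAC and sham (horizontal axis) of each tested gene in 7 lists in and around the cycle; filled points have an adjusted p under 0.05 and vertical bars are list medians. The 9 cycle genes and the other cycle subunits run from -0.60 to -0.31, whereas the lists of carriers and of reactions that fill or leave the cycle extend above zero.

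Beyond the core cycle, 2 of 5 tested cytosolic or tissue-restricted relatives of the cycle enzymes fell with TAC, the cytosolic isocitrate dehydrogenase Idh1 (log2 fold change -0.55, adjusted p = 0.0194) and the cytosolic malate dehydrogenase Mdh1 (-0.44, 0.0101). Across all genes tested 13% were called lower between these groups. In pyruvate entry 3 of 12 fell. They were Mpc2, a subunit of the mitochondrial pyruvate carrier (-0.49, adjusted p = 0.0238), Pdha1, the E1 alpha subunit of pyruvate dehydrogenase (-0.30, 0.0434), and Pdp2, a phosphatase that activates that enzyme. Pdp2 averaged 24.6 ± 11.2 CPM with TAC and 54.1 ± 7.28 CPM in sham hearts (-1.14, SE 0.32, adjusted p = 0.0161). In the list of reactions that fill or leave the cycle 7 of 17 fell: Acss1, which makes acetyl-CoA from acetate in mitochondria (-0.71, adjusted p = 0.00884), the propionyl-CoA route genes Mut (-0.54), Pcca (-0.49) and Pccb (-0.32), the cytosolic aspartate aminotransferase Got1 (-0.48), the malic enzyme Me3 (-0.37) and the transhydrogenase Nnt (-0.50). Nnt is known to carry a deletion of several exons in C57BL/6J mice, so its RNA level is not a level of working enzyme.

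Carriers of cycle intermediates went both ways. The citrate carrier Slc25a1 rose with TAC, averaging 7.71 ± 1.19 CPM with TAC and 5.66 ± 0.614 CPM in sham hearts (log2 fold change 0.45, SE 0.13, adjusted p = 0.018). The aspartate-glutamate carrier Slc25a12 fell (-0.48, adjusted p = 0.0155). The mitochondrial glutamate carrier Slc25a22 stood at 8.86 to 16.7 CPM with TAC and 22.3 to 32.5 CPM in sham hearts, with no overlap (-1.29, SE 0.23, adjusted p = 0.00262). Relative to sham it was not called with the PDE5A inhibitor (-0.66, SE 0.23, adjusted p = 0.0549) and fell with the PDE9A inhibitor (-0.90, SE 0.22, adjusted p = 0.0322); between the inhibitors the difference was 0.24 (SE 0.22, adjusted p = 0.735).

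Of 12 regulators of mitochondrial gene expression 5 fell with TAC, where 13% of all genes tested were called lower. The coactivators Ppargc1a and Ppargc1b had log2 fold changes of -0.61 (adjusted p = 0.0131) and -0.43 (0.00556). The nuclear receptors Esrra, which works with these coactivators, and Ppara, an activator of fatty acid oxidation genes, had -0.37 (0.0143) and -0.57 (0.0135), and Gabpa, the DNA-binding subunit of GABP, had -0.27 (0.0226). Ppargc1b averaged 31.9 ± 3.50 CPM with the PDE5A inhibitor, 33.7 ± 4.496 CPM with the PDE9A inhibitor, 24.7 ± 1.35 CPM with TAC and 33.3 ± 3.13 CPM in sham hearts. All 5 PDE5A inhibitor libraries were above all 5 TAC libraries. The same held for 1 other of the 12, Esrrb (34.82 to 40.45 CPM, against 29.30 to 33.80 CPM with TAC). Of all genes, 0.99% had no overlap here in either direction. None of the 12 was called between an inhibitor and TAC. For Ppargc1b the log2 fold change was 0.37 (adjusted p = 0.785) with the PDE5A inhibitor and 0.45 (adjusted p = 0.254) with the PDE9A inhibitor.

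Ratios of genes within a library do not depend on scaling, and 54 two-sided exact permutation tests of such ratios were run over the 6 comparisons. None passed after adjustment over the family. The log2 ratio of Ogdhl, a relative of Ogdh, to Ogdh averaged -4.54 ± 0.33 with the PDE5A inhibitor and -3.99 ± 0.12 in sham hearts (SD, n = 5 each), a difference of -0.55 (exact permutation p = 0.0238, adjusted p = 0.286). The log2 ratio of Ogdh to its partner Dlst averaged 1.99 ± 0.13 with the PDE5A inhibitor (n = 5) and 2.21 ± 0.14 with the PDE9A inhibitor (n = 6), a difference of -0.22 (exact permutation p = 0.0303, adjusted p = 0.286). For ATP- and GTP-forming succinyl-CoA synthetase, the log2 ratio of Suclg2 to Sucla2 averaged -1.47 ± 0.09 with TAC and -1.41 ± 0.13 in sham hearts (exact permutation p = 0.46). For NADP- and NAD-dependent isocitrate dehydrogenase, the log2 ratio of Idh2 to Idh3a averaged 1.82 ± 0.22 with TAC and 1.69 ± 0.14 in sham hearts (exact permutation p = 0.286).

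**Figure D4:**
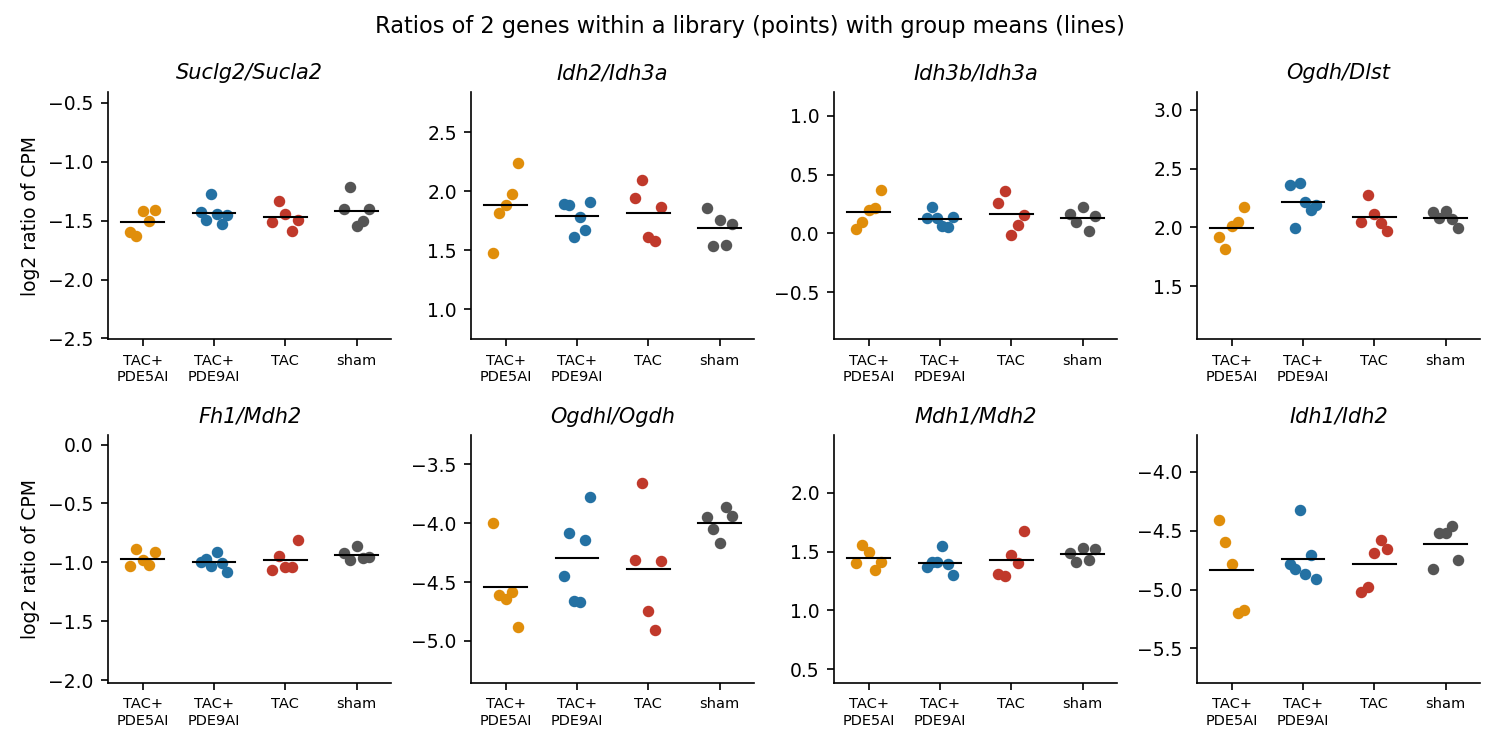
Log2 ratios of CPM of 8 gene pairs within each library (points), by group, with group means (lines); every vertical axis spans the same range of log2 units. Ogdhl over Ogdh has the widest spread among the TAC libraries, and its mean is lower with the PDE5A inhibitor (-4.54) than in sham hearts (-3.99).

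Over all 21 libraries the 9 genes kept close to a common profile. The root mean square difference of a gene's centred log2 CPM from the mean of the other 8 was lowest for Fh1 (0.0438) and Idh3b (0.0472) and highest for Idh2 (0.142) and Ogdh (0.134). Of 8505 other genes ranked by the same measure against the mean of the 9, the closest included Atp5a1 (0.0318), the alpha subunit of ATP synthase, Uqcrc1 (0.0384), a core subunit of complex III, and the fatty acid oxidation enzyme Echs1 (0.0476). Close to them were also the complex I subunits Ndufb2 (0.0540) and Ndufs7 (0.0549), the phosphate carrier Slc25a3 (0.0499), and D10Jhu81e (0.0567). The median over all ranked genes was 0.273. Genes of the lists used here were left out of this ranking. Among them the 14 cardiomyocyte markers ran from 0.0819 (Myl3) to 0.320 (Myom1), and the low end lay inside the range of the 9 genes. These values describe the same libraries that carry the difference between groups and have no test.

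The 14 cardiomyocyte markers were all present and none was at 0 in any library of any group. With TAC relative to sham, 5 of them fell and 1 rose, with a median log2 fold change of -0.23. Of all genes tested, 25.2% were called in either direction in this comparison and 13% were called lower. Their summed level was 154400 to 194200 CPM with the PDE5A inhibitor, 164400 to 231200 with the PDE9A inhibitor, 138800 to 199800 with TAC and 197800 to 232600 in sham hearts. As a percentage of these markers, the 9 cycle genes came to 4.54 ± 0.269 with the PDE5A inhibitor, 4.21 ± 0.383 with the PDE9A inhibitor, 4.23 ± 0.304 with TAC and 4.64 ± 0.215 in sham hearts, and the ranges of TAC (3.75 to 4.55) and sham (4.33 to 4.88) overlapped. Ttn and Myh6 were the most abundant of these markers: in TAC library 4 they gave 76357 and 16692 of 138770 CPM. Myh6 itself stood at 16692 to 38230 CPM with TAC and 42256 to 48842 CPM in sham hearts. The percentage therefore does not set the cycle genes against cardiomyocyte content alone. Of 10 markers of activated fibroblasts 9 rose with TAC. They summed to 690 to 3690 CPM with the PDE5A inhibitor, 333 to 2895 with the PDE9A inhibitor, 916 to 5999 with TAC and 271 to 376 in sham hearts.

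The libraries lowest in cycle genes were high in these fibroblast markers. TAC libraries 3 and 4 had 4641 and 5999 CPM of them and the lowest cycle sums of the TAC group, and TAC library 2 had the least of them (916 CPM) and the highest sum. PDE9A inhibitor library 6, with the highest cycle sum outside the sham group, had 333 CPM. Of 10 general fibroblast markers 8 rose with TAC (median log2 fold change 0.77). No macrophage marker of 7 tested and no erythroid marker of 6 was called, with medians of 0.13 and -0.72. Of 9 endothelial markers 1 fell, with a median of -0.08. Of 7 smooth muscle and pericyte markers 2 rose and 1 fell, where 25.2% of all genes tested were called in either direction. The part of cell composition in the changes of the cycle genes was not tested.

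**Figure D5:**
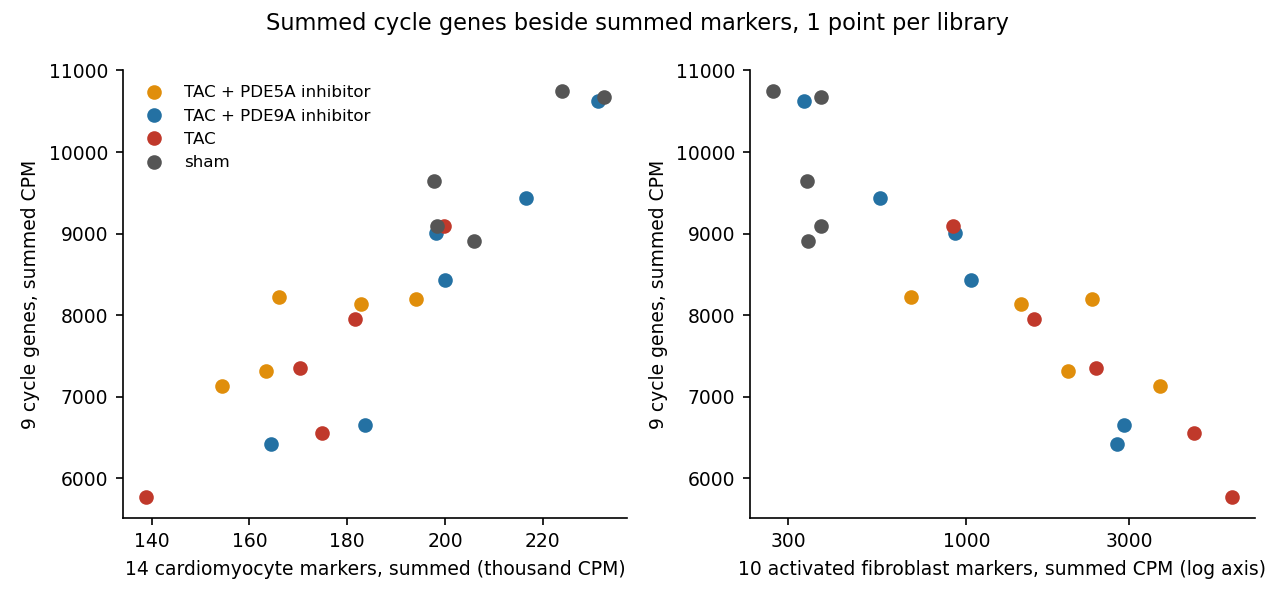
Summed CPM of the 9 cycle genes (vertical axes, not starting at 0) in each library beside the summed CPM of 14 cardiomyocyte markers (left, in units of 1000 CPM) and of 10 activated fibroblast markers (right, log axis). TAC library 4 (58.7% of the sham mean) is at the low end of the cardiomyocyte markers and the high end of the fibroblast markers, and PDE9A inhibitor library 6 (108%) lies among the sham libraries.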

How the data were processed

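The authors deposited 1 table of RSEM expected counts per gene symbol, unscaled, with 1 column for each library; 93.1% of the values of the 9 genes were not whole. Per the submitters' processing notes, the tools were RSEM 1.3.0, HISAT2 2.0.5, DESeq2 1.18.1 and CASAVA 1.8.4 and the build was mm10; their roles are not stated there. Symbols turned into dates (27 rows) are not named. Per the labels' protocols, the libraries were stranded and took 500 ng of total RNA. Symbols were matched to GENCODE mouse release M21 (22683 to exactly 1 gene), and CPM per kb uses the merged exon length.

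Expected counts were rounded, genes of low count were removed with filterByExpr by group, and libraries were scaled by TMM. A group-means quasi-likelihood model was fitted to all 21 libraries (edgeR 4.0.16, glmQLFit with robust estimation, glmQLFTest, R 4.3.3), with Benjamini-Hochberg adjustment over 14135 genes in each comparison. Genes were called at an adjusted p under 0.05, and intervals are 95% and unadjusted. No pair of libraries of the same group agreed within counting noise (lowest chi-square per degree of freedom 12.1). Pairs across groups were not compared. P-values measure the spread between animals as labelled.

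The 9 genes and all lists were chosen with earlier results of these data known. Between TAC and sham all 9 are named with their values. In the other comparisons all 9 are counted, and only some are named. Of the other cycle lists, each gene called between TAC and sham or between an inhibitor and TAC is named. Each partner of a member in the same enzyme is named too. The 8 genes of closest profile were ranked among genes with a mean of at least 10 CPM outside the lists. The levels of Ppargc1b and Esrrb with the inhibitors and the ratios given in full were chosen after their values were seen. A few genes that these rules select are not reported here. Alternatives were RLE, upper-quartile and total-count scaling, no filter, DESeq2 1.42.0, the compared groups alone, a replicate block, ear tag series as a term, PDE9A inhibitor libraries 1 and 4 left out (the libraries with the highest share of the ribosomal RNA gene Rn45s), and each library left out.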

Additional observations from a re-analysis of the deposited data

Results flagged for a closer look

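The log2 ratio of Idh1 to Idh2 in PDE9A inhibitor library 3 was -4.321, apart from the other libraries of its group, which lay between -4.909 and -4.703. It was set apart by the gap to its nearest neighbour relative to the range of the group (n = 6). Among 108 groups of values examined it was the only such case, and chance alone sets apart about 1 in 20. The same library had the lowest Idh2 level of the group.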

How the results depend on the processing

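Percentages in brackets are the share of all genes called in the same fit. Between TAC and sham, 8 cycle genes fell with RLE (25%) or upper-quartile scaling (24.9%), with no filter (17%) or with DESeq2 (29.4%). The count was also 8 with the compared groups alone (28.5%) and without PDE9A inhibitor libraries 1 and 4 (30%). It was 7 with total counts (26.7%, all-gene median 0.087) and 6 with ear tag series as a term (19%). Leaving out 1 library gave 3 to 9 (12.6% to 31.2%). Between the PDE5A inhibitor and sham, 3 fell in the model described (14.6%), 8 with the compared groups alone (24.8%) and 6 with DESeq2 (19.9%). The count was 6 without PDE9A inhibitor libraries 1 and 4 (18.7%) and 2 (Cs and Idh3a) with total counts (14.2%). It was 0 with ear tag series (1.95%), and 0 to 6 with 1 library left out (4.08% to 17.9%). Between the PDE9A inhibitor and sham, 0 to 3 fell with 1 library left out (0.148% to 12.8%). No cycle gene was called between an inhibitor and TAC or between the inhibitors under any alternative. Genes that changed sign were uncalled in every fit: between the inhibitors, Idh2 (0.0272) and Idh3b (0.0023) with total counts and Sucla2 (-0.08) without PDE9A inhibitor libraries 1 and 4, and Ogdh between the PDE9A inhibitor and sham (0.0096) with ear tag series. With 1 library left out, Cs ranged from -0.0482 to 0.0996 between the PDE5A inhibitor and TAC, and between the inhibitors Idh2 from -0.1187 to 0.0709, Idh3b from -0.1180 to 0.0211, Suclg1 from -0.1425 to 0.0157 and Sucla2 from -0.0339 to 0.1139. The causes were not tested.

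The replicate numbers did not pair the samples: over 30 same-numbered pairs the correlation of deviations ran from -0.225 to 0.564 (median 0.02), with 8 above 0.1. With a replicate block 9 genes fell between TAC and sham, 6 between the PDE5A inhibitor and sham, and 7 between the PDE9A inhibitor and sham. In that fit 27.6%, 18.2% and 15.9% of all genes were called in these comparisons, in that order. Between the inhibitors the block gave 0.0879 for Idh2, 0.033 for Idh3b, 0.0261 for Suclg1 and 0.0081 for Fh1.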
